A study of Homo sapiens with 60 samples.

Results

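The response of 1321N1 cells to 3 h of arsenic was followed in 6 of the 60 libraries of the series, 3 of cells given sodium metaarsenite at 2.55 µM and 3 of non-treated cells collected at the same time point. 1321N1 is an established human cell line derived from an astrocytoma, a tumor of astrocytes. Both groups were kept in full medium, and the arsenic dose had been chosen by its toxicity after a much longer exposure. The remaining libraries hold cadmium, mercury, arsenic at other time points, and matched non-treated cultures. Reads came from the 3′ end of transcripts. Of the 62703 genes in the table, 12341 had enough counts to be tested. The labels describe the triplicates as technical, and the p values may therefore measure only the spread between these libraries.

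Arsenite binds thiol groups of proteins, including those of the sensors that hold stress programs in check. HSF1 is the transcription factor that drives the heat-shock chaperones, NRF2 drives enzymes of glutathione synthesis and antioxidant defence, MTF1 drives metallothioneins and zinc export, and ATF4 drives the genes of the integrated stress response. Heme oxygenase 1, encoded by HMOX1, is a classical arsenite-inducible gene.

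The arsenic libraries held 3158463, 2215276, and 2996525 counts in replicates 1 to 3, against 3248664, 3257965, and 3283010 in the non-treated libraries. Arsenic replicate 2 stood apart, with the lowest depth of all 60 libraries and 1.91% of its counts on the mitochondrial genome, whereas the other 5 libraries had 5.43 to 7.03%. A level of 3 counts corresponded to 0.887 to 1.31 CPM, counts scaled to library size, in these libraries. Of the astrocyte markers, VIM (4550 to 5220 CPM), CD44 (390 to 462 CPM), and SOX9 (70 to 100 CPM) were well expressed, while GFAP reached at most 0.906 CPM and S100B, AQP4, ALDH1L1, and FABP7 had 0 counts in all 6 libraries. The summed markers of oligodendrocytes reached at most 0.333 CPM and those of microglia and leukocytes at most 2.78 CPM. The neuron list summed to 11.1 to 13.3 CPM in non-treated and 12.2 to 17.3 CPM in arsenic libraries, most of it SYT1, and the endothelial and epithelial list to 51.9 to 65.6 and 62.3 to 67.1 CPM, most of it KRT18.

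After 3 h of arsenic, 17 of the 12341 genes tested (0.138%) differed from non-treated cells at an adjusted p under 0.05 in edgeR's quasi-likelihood test, 15 upward (0.122%) and 2 downward (0.0162%). All 17 are protein-coding genes. Heat-shock chaperones and their helpers made up 9 of the 15 genes that rose: HSPA1A, HSPA1B, HSPA6, HSPA8, HSPH1, DNAJB1, DNAJA1, HSPB1, and BAG3. The others that rose were HMOX1 and GCLM of the antioxidant defence, MT1X and SLC30A1 of metal and zinc handling, and the stress-inducible DDIT4 and GADD45B. TXNIP and ANO8 fell. The log2 fold change (LFC) exceeded 1 for 7 of them (0.0567%) and was below -1 for 0 genes. In every one of the 17 genes the 3 arsenic libraries lay on 1 side of the 3 non-treated libraries, which held upward for 6.55% and downward for 5.76% of all genes tested. In bulk RNA, a higher level in every cell and a larger share of cells holding the transcript cannot be told apart.

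The promoters of 6 of the genes that rose are shown because they hold the words through which these stress factors are known to bind DNA. Each is the 250 bases before the transcription start in RefSeq (GRCh38.p14), read on the strand of the gene, and capitals mark matches on either strand to GAANNTTC (heat-shock element), TGCACNC or TGCGCNC (metal response element), TGACNNNGC (antioxidant response element), or TGATGNAA (amino acid response element), with the longer heat-shock word, GAANNTTC extended by NNGAA after it or by TTCNN before it, in capitals over its whole length. HSPA1A lies at chr6:31815293-31815542 (plus strand), HSPA1B at chr6:31827488-31827737 (plus), HSPA6 at chr1:161524290-161524539 (plus), MT1X at chr16:56682220-56682469 (plus), SLC30A1 at chr1:211579162-211579411 (minus), and GCLM at chr1:93909431-93909680 (minus).
HSPA1A: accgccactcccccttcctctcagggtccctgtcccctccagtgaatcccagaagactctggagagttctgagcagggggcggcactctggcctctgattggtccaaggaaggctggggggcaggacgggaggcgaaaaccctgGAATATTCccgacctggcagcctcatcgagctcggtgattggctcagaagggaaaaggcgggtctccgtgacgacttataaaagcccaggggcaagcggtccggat
HSPA1B: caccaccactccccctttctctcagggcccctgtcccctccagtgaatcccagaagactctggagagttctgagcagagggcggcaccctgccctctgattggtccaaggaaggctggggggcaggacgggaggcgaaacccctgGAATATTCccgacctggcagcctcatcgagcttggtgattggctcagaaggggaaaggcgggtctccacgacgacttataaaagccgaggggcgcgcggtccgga
HSPA6: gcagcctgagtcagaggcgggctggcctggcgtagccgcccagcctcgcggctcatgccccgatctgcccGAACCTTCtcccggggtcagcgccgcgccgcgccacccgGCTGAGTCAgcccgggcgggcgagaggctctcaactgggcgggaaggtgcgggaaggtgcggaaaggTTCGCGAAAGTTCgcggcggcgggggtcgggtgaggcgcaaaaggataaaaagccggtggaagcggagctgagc
MT1X: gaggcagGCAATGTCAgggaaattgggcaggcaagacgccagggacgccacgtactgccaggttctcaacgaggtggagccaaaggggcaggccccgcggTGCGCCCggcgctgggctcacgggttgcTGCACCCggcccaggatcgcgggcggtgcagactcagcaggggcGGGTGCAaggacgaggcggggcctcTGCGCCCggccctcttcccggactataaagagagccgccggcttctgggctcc
SLC30A1: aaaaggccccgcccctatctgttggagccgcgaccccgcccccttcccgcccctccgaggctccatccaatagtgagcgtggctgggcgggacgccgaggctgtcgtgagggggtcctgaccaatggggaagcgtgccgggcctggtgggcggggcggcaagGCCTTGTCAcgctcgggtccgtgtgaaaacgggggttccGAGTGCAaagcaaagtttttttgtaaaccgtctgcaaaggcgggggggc
GCLM: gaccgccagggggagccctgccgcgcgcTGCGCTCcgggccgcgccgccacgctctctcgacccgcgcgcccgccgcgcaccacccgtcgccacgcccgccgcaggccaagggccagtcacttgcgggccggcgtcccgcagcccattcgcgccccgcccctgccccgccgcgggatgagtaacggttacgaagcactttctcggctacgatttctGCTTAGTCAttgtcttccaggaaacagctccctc

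The table of promoters held 15 of the 17 genes, without HMOX1 and ANO8. The word GAANNTTC stood in the 250 bases of 6 of them (HSPA6, HSPA1A, HSPA1B, HSPB1, DNAJA1, and HSPA8) and in 5.85% of all 27305 promoters or 4.09% of the 9428 promoters of genes tested. HSPA1A and HSPA1B carry it at nearly the same place, from 106 and 105 bases before the start. The longer heat-shock word was found for HSPA6, from 74 bases before the start, and for HSPA8, and in 0.439% of all promoters (0.297% of those tested). Among the heat-shock genes called, DNAJB1, HSPH1, and BAG3 held neither heat-shock word in their windows. The metal word TGCACNC stood 2 times before MT1X, from 122 and 78 bases before the start, and 1 time each before SLC30A1, HSPB1, and GADD45B, against 9.73% of all promoters with a match (9.25% of those tested), while TGCGCNC was found for 6 of the 15 genes, in 16.9% of all promoters, and in 27.3% of those tested. TGACNNNGC stood before GCLM, from 34 bases before the start, and before HSPA6, SLC30A1, and MT1X, with a share of 11% over all promoters (12.1% of those tested). TGATGNAA was found for 0 of the 15 genes and in 3.19% of all promoters (1.35% of those tested). Such matches describe the letters of these windows only.

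The inducible HSP70 genes, whose products hold unfolded proteins for refolding, carried the largest changes among the chaperones. HSPA1B (chr6:31827738-31830254) had 37.1, 40.4, and 30.2 CPM in the non-treated and 168, 169, and 195 CPM in the arsenic libraries, an LFC of 2.30 (standard error 0.17, adjusted p = 1.12e-16). HSPA1A (chr6:31815543-31817946) had 8.76, 5.99, and 4.43 CPM in the non-treated and 28.4, 35.9, and 41 CPM in the arsenic libraries, an LFC of 2.45 (standard error 0.25, adjusted p = 1.6e-10). For both, the lowest arsenic library lay above the highest non-treated library. Both are neighbouring genes of nearly identical sequence, and HSPA1B also holds 12.3% of the stretches of 100 bases at the 3′ ends of HSPA1A transcripts. Of the 401 such stretches of HSPA1B, 0 were found in another gene. For reads of the shared stretches, the split between the 2 genes is uncertain. Their summed level was 45.9, 46.4, and 34.6 CPM in non-treated and 196, 205, and 236 CPM in arsenic libraries, of which HSPA1B held 80.9 to 87.2%, and the summed LFC was 2.33 (standard error 0.15, adjusted p = 2.94e-19).

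HSPA6 (chr1:161524540-161526894), a strictly stress-inducible HSP70 gene, was nearly silent without arsenic, with 1, 0, and 2 counts in the non-treated libraries against 24, 15, and 18 counts with arsenic. The ratio of the normalized sums was 22.4, with a 95% exact interval of 7.28 to 112 that covers counting error only. The LFC fitted by edgeR was 4.32 (standard error 0.61, adjusted p = 2.8e-06), a value that depends on the small count added to the non-treated side. HSPA7, a near-identical relative, shares 9.23% of such stretches with HSPA6.

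Co-chaperones of HSP70 rose too. DNAJB1 (chr19:14514769-14560391), an HSP40 protein that delivers clients to HSP70, went from 144, 156, and 150 CPM to 335, 297, and 372 CPM, an LFC of 1.16 (standard error 0.12, adjusted p = 1.95e-10). BAG3, a co-chaperone that links HSP70 to small heat-shock proteins and autophagy, went from 73.1, 63.2, and 59.4 CPM to 117, 118, and 97.6 CPM (LFC 0.76, adjusted p = 0.000588). HSPH1, the HSP110 nucleotide exchange factor of HSP70, went from 245, 251, and 229 CPM to 355, 352, and 312 CPM (LFC 0.49, adjusted p = 8.33e-05). Arsenic replicate 3 was the highest library for DNAJB1 and the lowest of the treated ones for BAG3 and HSPH1.

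Further chaperones that were abundant without arsenic moved by LFCs of 0.33 to 0.48. HSPA8, the HSP70 protein of unstressed cells, went from 578, 542, and 520 CPM to 739, 860, and 696 CPM (LFC 0.48, adjusted p = 0.0127). HSPB1, a small heat-shock protein, went from 1120, 1250, and 1310 CPM to 1680, 1470, and 1780 CPM (LFC 0.42, adjusted p = 0.0307). DNAJA1, another HSP40 protein, went from 270, 267, and 239 CPM to 328, 325, and 323 CPM (LFC 0.33, adjusted p = 0.032). The 3 arsenic libraries were closest to each other for DNAJA1. Relative to the level of the gene, the gap between the groups was narrowest for HSPB1, from 1310 to 1470 CPM.

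Of the 44 heat-shock chaperones tested, 9 rose and 0 fell (20.5%, against 0.138% of all genes tested). An LFC above 0 was seen for 38 of the 44 (86.4%, against 50.7% of all genes tested), and the median LFC was 0.14, against 0.00 over all genes. The 35 others did not pass, among them HSP90AA1 (LFC 0.20, adjusted p = 0.348, and 0.044 without arsenic replicate 3) and HSP90AB1 (0.05, adjusted p = 0.928), the 2 cytosolic HSP90 genes, HSPD1 and HSPE1 of the mitochondrial chaperonin (0.10 each), and the subunits of the cytosolic chaperonin, from -0.06 for TCP1 to 0.15 for CCT3. STIP1, which joins HSP70 to HSP90 (LFC 0.51, adjusted p = 0.0739), and SERPINH1, the collagen chaperone (0.44, adjusted p = 0.069), lay just outside the threshold. Both passed with DESeq2 (adjusted p = 0.0274 and 0.021), without a filter on low counts (0.0024 and 0.0391), and without arsenic replicate 1 (0.0309 and 0.0318). The transcript of HSF1 itself had an LFC of -0.02. DNAJA4 had 0 counts in all 6 libraries and was not tested.

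**Figure D1:**
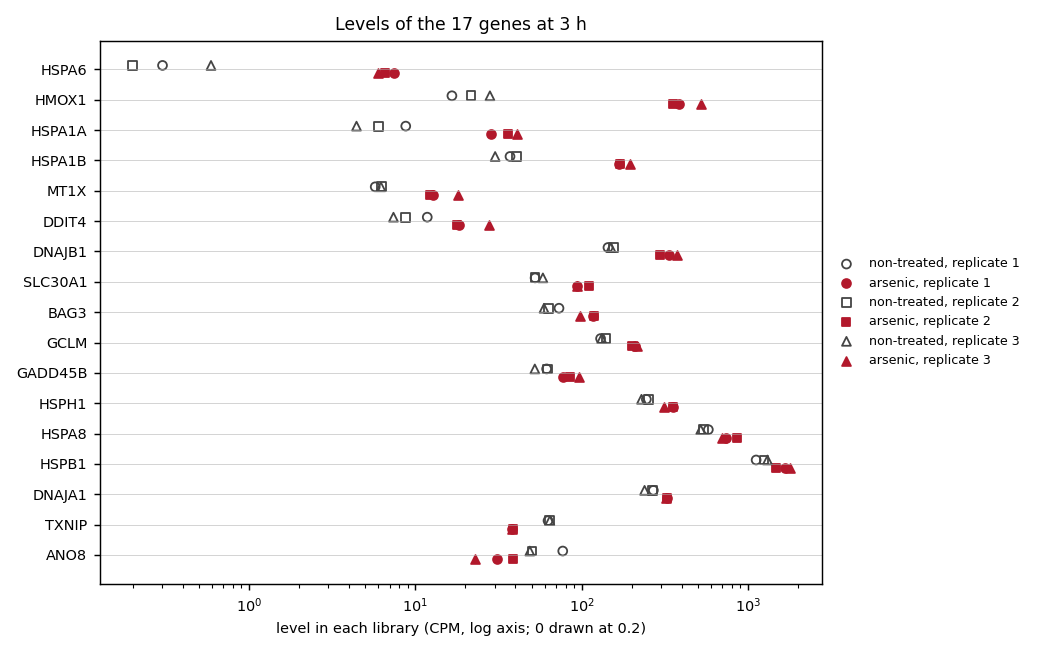
Level of each of the 17 genes in each library at 3 h (CPM, log axis), with open symbols for non-treated and red symbols for arsenic libraries. Each replicate number has 1 symbol shape, names a library, and was not used to pair libraries. For all 17 genes the 3 arsenic libraries lie on 1 side of the 3 non-treated libraries, from HSPA6 (at most 0.591 against at least 6 CPM) to DNAJA1 (at most 270 against at least 323 CPM).

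HMOX1 (chr22:35380361-35394214), which degrades heme to biliverdin, iron, and carbon monoxide, had the lowest p of all genes. It stood at 16.6, 21.6, and 28.1 CPM in the non-treated and at 387, 356, and 520 CPM in the arsenic libraries, an LFC of 4.25 (standard error 0.17, adjusted p = 1.74e-31). The mean rose from 22.1 ± 5.76 to 421 ± 87 CPM (SD, n = 3). GCLM (chr1:93885199-93909456), the modifier subunit of the enzyme that starts glutathione synthesis, rose from 130, 140, and 132 CPM to 210, 201, and 215 CPM, an LFC of 0.64 (standard error 0.10, adjusted p = 1.37e-05). No arsenic library overlapped a non-treated one for either gene.

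HMOX1 and GCLM were the 2 of 39 NRF2 targets that rose (5.13%, against 0.138% of all genes), and 0 fell. Of the 39, 34 had an LFC above 0 (87.2%, against 50.7% of all genes tested) and the median was 0.15. The ferritin subunits FTH1 (LFC 0.26, adjusted p = 0.242) and FTL (0.27, adjusted p = 0.277), which store iron, the peroxidase PRDX1 (0.29, adjusted p = 0.206), the thioredoxin reductase TXNRD1 (0.28, adjusted p = 0.702), NQO1 (0.15, adjusted p = 0.718), and GCLC, the catalytic partner of GCLM (0.43, adjusted p = 0.759), did not pass. Among 34 genes of the glutathione and thioredoxin systems, only GCLM rose (2.94%, against 0.138% of all genes tested). Of these 34, 28 had an LFC above 0 (82.4%, against 50.7% of all genes tested), and the median was 0.15. SRXN1, an NRF2 target, had 0 counts in all 6 libraries.

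Genes of arsenic uptake, methylation, and export did not pass. Of 12 such genes tested, 0 were called by edgeR or DESeq2, 0 had an unadjusted p under 0.05, and the LFC ran from -0.13 to 0.42, with ABCC1, an exporter of glutathione conjugates, at 0.09 and SLC20A1, a phosphate importer, at -0.06. AS3MT, the arsenic methyltransferase, and the aquaglyceroporins AQP7, AQP9, and AQP10 had 0 counts in all 6 libraries. Of 7 ABC transporters of glutathione conjugates and drugs, 0 were called and 0 had an unadjusted p under 0.05, with a median LFC of 0.09. Over all genes tested, 0.138% were called by edgeR and 7.37% had an unadjusted p under 0.05.

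Metal-responsive genes rose in part. SLC30A1 (chr1:211571568-211579161), which exports zinc across the plasma membrane, stood at 52.5, 52.4, and 58.5 CPM without and at 94.3, 110, and 93.6 CPM with arsenic, an LFC of 0.86 (standard error 0.13, adjusted p = 2.52e-05). MT1X (chr16:56682470-56684196), a metallothionein that binds metal ions through its cysteines, stood at 5.74, 6.29, and 6.21 CPM without and at 12.7, 12.2, and 18 CPM with arsenic, an LFC of 1.24 (standard error 0.26, adjusted p = 0.00922). For both genes all arsenic libraries were higher. A lncRNA gene that overlaps MT1X on the same strand, ENSG00000259827, shares 32.9% of its 3′ stretches, and reads that touch both genes are left out by the counting.

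The more abundant metallothioneins did not pass in the 60-library edgeR analysis. MT1E had 232, 273, and 249 CPM without and 325, 339, and 359 CPM with arsenic (LFC 0.44, adjusted p = 0.0611), so that its groups did not overlap. MT1E passed at nearly the same LFC with DESeq2 (adjusted p = 0.0159), a replicate block (0.029), the mitochondrial genome left out (0.0426), or no filter on low counts (0.00184). MT2A had 2580, 2640, and 2570 CPM without and 2780, 3520, and 2930 CPM with arsenic (LFC 0.24, adjusted p = 0.838). Of the 8 genes of the metal and zinc list tested, 2 rose and 0 fell (25%, against 0.138% of all genes tested), with a median LFC of 0.16. The zinc importers SLC39A10 (LFC 0.07) and SLC39A14 (0.02) and the transcript of MTF1 (-0.01) lay near 0, and MT1A, MT1F, MT1G, MT1H, MT1M, and MT3 had 0 counts in all 6 libraries.

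DDIT4 (chr10:72273919-72276036), an inhibitor of mTORC1 signalling that ATF4 can induce, stood at 11.8, 8.68, and 7.39 CPM without and at 18.2, 17.9, and 27.7 CPM with arsenic, an LFC of 1.20 (standard error 0.24, adjusted p = 0.00605). It was the 1 gene called among 51 ATF4 targets and feedback genes (1.96%, against 0.138% of all genes tested). Of these 51, 32 had an LFC above 0 (62.7%, against 50.7% of all genes tested), with a median of 0.07. DDIT3, the transcription factor CHOP (LFC 0.91, adjusted p = 0.15), TRIB3 (0.61, adjusted p = 0.371), SESN2 (0.60, adjusted p = 0.447), and PPP1R15A, which reverses the block of translation (0.49, adjusted p = 0.49), did not pass, nor did ATF4 itself (0.22, adjusted p = 0.751). In edgeR's test PPP1R15A did pass against time-matched non-treated cells at 1.5 h (LFC 0.79, adjusted p = 0.0222) and at 6 h (0.75, 0.00999). Of the amino acid transporters the study discusses, SLC7A5 had an LFC of 0.67 (adjusted p = 0.069), SLC7A11 of 0.27, SLC1A4 of 0.32, SLC3A2 of -0.01, and SLC6A9 of -0.11. SLC7A5 stood at 45.3, 47.9, and 42.6 CPM without and at 58.7, 54.2, and 101 CPM with arsenic, and it passed when arsenic replicate 1 (adjusted p = 0.0302) or replicate 2 (0.0151) was left out, with DESeq2 (0.021), and without a filter (0.00382).

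GADD45B (chr19:2476122-2478259), a stress-inducible regulator of MAP kinase signalling, stood at 61.6, 62.6, and 52.3 CPM without and at 77.3, 85.7, and 96.3 CPM with arsenic, an LFC of 0.55 (standard error 0.11, adjusted p = 0.00624). It was the 1 gene called among 21 p53 targets and death genes (4.76%, against 0.138% of all genes tested), whose median LFC was -0.01. CDKN1A, the cell cycle inhibitor p21 and a p53 target, had an LFC of -0.61 (adjusted p = 0.127). It passed as lower with DESeq2 (LFC -0.62, adjusted p = 0.0409) and without a filter on low counts (-0.62, 0.0419).

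Both genes that fell were of moderate level. TXNIP (chr1:145992435-145996579), which binds thioredoxin and limits glucose uptake, stood at 62.8, 64.4, and 64.4 CPM without and at 38.3, 38.9, and 38.3 CPM with arsenic, an LFC of -0.73 (standard error 0.16, adjusted p = 0.0157). ANO8 (chr19:17323223-17334855), a membrane protein of the anoctamin family, stood at 77, 50.3, and 48.8 CPM without and at 31.2, 38.9, and 22.7 CPM with arsenic, an LFC of -0.94 (standard error 0.18, adjusted p = 0.0015). The TXNIP libraries were tightly grouped on each side, while non-treated replicate 1 stood well above the other two for ANO8. Among 20 genes of glucose uptake and glycolysis, TXNIP was the 1 called (5%, against 0.138% of all genes tested). GAPDH had an LFC of 0.24 and ENO1 of 0.21, neither of which passed.

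Of the 17 genes, 9 (HMOX1, HSPA1A, HSPA1B, HSPA6, DNAJB1, HSPH1, BAG3, GCLM, and SLC30A1) passed in each of the alternative analyses tried, while 8 depended on single libraries. TXNIP and DNAJA1 missed the threshold when any 1 of the 6 libraries was left out, with an adjusted p of 0.0527 to 0.13 and of 0.0743 to 0.388. DNAJA1 also missed it without a filter on low counts (0.351) and with a replicate block (0.0679). HSPB1 missed it for each library except arsenic replicate 2 (0.0557 to 0.468). MT1X missed it without arsenic replicate 3 (0.336) or non-treated replicate 1 (0.0914), 2 (0.0653), or 3 (0.0671). DDIT4 missed it without arsenic replicate 3 (0.356) or non-treated replicate 2 (0.0703) or 3 (0.152), and HSPA8 without arsenic replicate 2 (0.249) or non-treated replicate 2 (0.0948) or 3 (0.189). GADD45B missed it without arsenic replicate 3 (0.232) or non-treated replicate 3 (0.189), and ANO8 without arsenic replicate 3 (0.136) or non-treated replicate 1 (0.19). With only the 6 libraries in the fit, 7 of the 8 missed it (0.055 for HSPA8 to 0.399 for DNAJA1), TXNIP being the exception, and the direction of all 17 held in each alternative. Without the shallow arsenic replicate 2, 17 genes again passed, of which DNAJA1, HSPA8, and TXNIP were no longer members and FST, HNRNPL, and SLC7A5 were added.

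Just past the threshold lay GON4L (LFC -0.64, adjusted p = 0.0575), MT1E, PDXK, which activates vitamin B6 (0.45, adjusted p = 0.0611), and AMD1, a polyamine synthesis enzyme (-0.37, adjusted p = 0.0611), next to DNAJA1 (adjusted p = 0.032) just inside it. With DESeq2 GON4L (adjusted p = 0.00936), PDXK (0.0154), and AMD1 (0.00587) passed. In edgeR's test GON4L also passed under 5 other alternatives (0.0148 to 0.0449) and AMD1 under 3 (0.00627 to 0.0436), both of them without arsenic replicate 1 (0.0386 and 0.00627). A further 892 genes had an unadjusted p under 0.05 without passing the adjustment, 511 higher and 381 lower with arsenic. Together with the 17 they made up 7.37% of the genes tested. The median standard error of the LFC was 0.58 in the 3086 genes with the fewest counts in these 6 libraries and 0.12 in the 3085 with the most. The latter held 11 of the 17 genes and the former 1, so that small changes of low genes were less detectable at this depth.

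Lists for other stress and growth programs held 0 genes that passed, with edgeR or with DESeq2. Of 27 ER chaperones and XBP1-related genes, with HSPA5, the ER HSP70, at an LFC of -0.02, the median LFC was 0.06. It was 0.07 for 36 proteasome subunits, 0.19 for 19 ubiquitin genes and autophagy receptors (SQSTM1 0.15, UBB 0.21), and 0.00 for 40 immediate-early genes, with JUN at 0.16. The median was -0.16 for 14 NF-kB feedback genes and cytokines, 0.10 for 23 genes of cholesterol synthesis, -0.06 for 34 genes of S phase and mitosis, and -0.02 for 20 SR splicing factors and CLK kinases. At an unadjusted p under 0.05 stood 4 of the ER genes, 3 of the proteasome subunits, 4 of the ubiquitin list, 6 immediate-early genes, 2 of the NF-kB list, 3 of cholesterol synthesis, 5 of S phase and mitosis, and 0 of the splicing list. Over all genes tested this share was 7.37%. An LFC above 0 was held by 72.2% of the proteasome subunits, 84.2% of the ubiquitin list, 35.7% of the NF-kB list, and 35.3% of S phase and mitosis. Over all genes tested it was 50.7%. The 13 transcripts of the mitochondrial genome had LFCs from -0.86 to -0.26 with a median of -0.45, and 0 passed, 7 of them at an unadjusted p under 0.05, whereas 11 passed without a filter on low counts. They summed to 36800 to 49600 CPM in non-treated and 11800 to 38900 CPM in arsenic libraries, with the lowest sum in arsenic replicate 2, and without that library their median was -0.09.

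**Figure D2:**
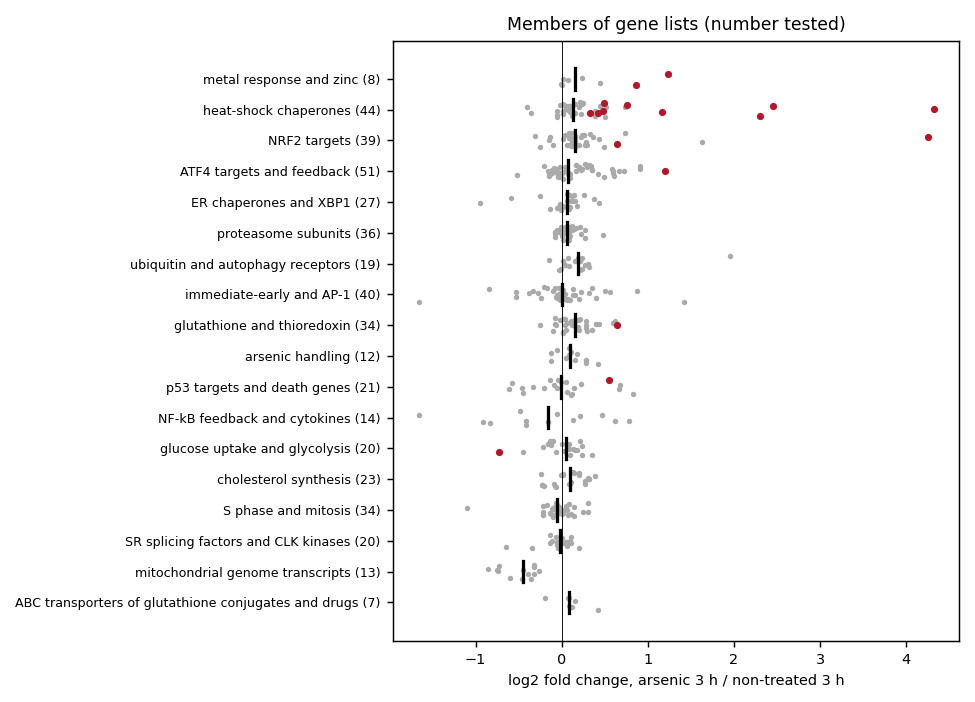
LFC of arsenic 3 h over non-treated 3 h for the tested members of each gene list, with the number tested in brackets; red points passed an adjusted p of 0.05, grey points did not, black bars are medians, and the vertical scatter has no meaning. The medians of the lists shown lie between -0.16 and 0.19, except for the mitochondrial genome (-0.45), and red points reach from -0.73 (TXNIP) to 4.32 (HSPA6).

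The other time points show how the 17 genes stood before and after 3 h. At 1.5 h, 0 of the 17 passed in edgeR's test (background 0.0729%), with LFCs from -0.28 to 0.75. At that time 2 of them had an unadjusted p under 0.05, and 1 passed with DESeq2, without a filter on low counts, or without arsenic 1.5 h replicate 3. At 6 h 14 passed in the same direction (0.916% of all genes), at 12 h 12 (4.11%), and at 24 h 14 (14.3%), of which GADD45B had turned to the opposite direction (LFC -0.65, adjusted p = 2.87e-05). The 14 shared with 6 h were 82.4% of the genes called at 3 h and 12.4% of the 113 called at 6 h. These libraries are separate from those at 3 h on both sides.

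The LFC of HMOX1 was higher at each later time point, with a value of 0.75 in the first samples (adjusted p = 0.11) and then of 4.25, 5.44, 6.34, and 7.55. GCLM had 0.09, 0.64, 1.17, 1.92, and 1.95. The effect was highest at 6 h for several chaperones: HSPA1B had -0.16, 2.30, 2.61, 1.43, and 1.60, DNAJB1 had 0.21, 1.16, 1.33, 0.46, and -0.16, and BAG3 had 0.04, 0.76, 1.46, 0.64, and 0.65. DDIT4 reached 2.07 at 6 h and held 1.99 at 24 h, and MT1E, which did not pass at 3 h, passed at 6 h with 0.92 (adjusted p = 1.58e-09). Of the genes that fell, TXNIP had -0.27 at 6 h (adjusted p = 0.62) and did not pass later, while ANO8 had 0.06 at 6 h (adjusted p = 0.951) and passed again at 24 h (-0.44, adjusted p = 0.0437).

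Tested as an interaction, the arsenic effect was larger at 3 h than at 1.5 h for 4 genes (0.0324% of those tested), all upward. The difference in LFC was 3.50 for HMOX1 (standard error 0.27, adjusted p = 6.52e-16), 2.46 for HSPA1B (0.25, 4.88e-11), 2.68 for HSPA1A (0.44, 0.000332), and 0.95 for DNAJB1 (0.17, 0.00236). In the arsenic libraries at 1.5 h, HMOX1 stood at 40.5, 30.6, and 34.2 CPM against 19.4, 25.5, and 17.5 CPM in the non-treated ones, and HSPA1B at 55.5, 48.8, and 59.3 CPM against 58, 67.3, and 56.9 CPM. For the other 13 genes the difference between 1.5 and 3 h did not pass. From 3 h to 6 h the effect differed for 8 genes (0.0648%), and HMOX1 was the 1 of the 17 whose effect grew past the threshold, by 1.19 (standard error 0.24, adjusted p = 0.0155), a call that was lost without non-treated 3 h replicate 3 (0.99, adjusted p = 0.152) or non-treated 6 h replicate 2 (1.02, adjusted p = 0.0924).

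**Figure D3:**
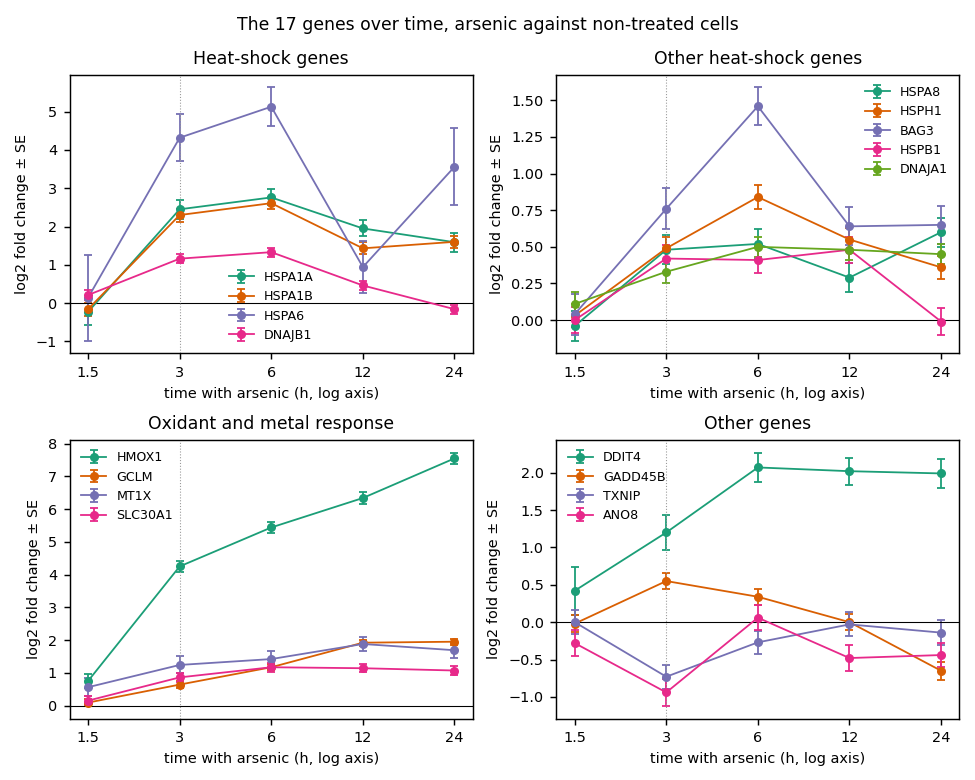
LFC of arsenic over time-matched non-treated cells, with its standard error, for the 17 genes against hours of exposure (log axis, 1.5 to 24 h); the dotted line marks 3 h and the vertical scales differ between panels. HMOX1 climbs to 7.55 at 24 h, HSPA1A, HSPA1B, and DNAJB1 are highest at 6 h (2.76, 2.61, and 1.33), and TXNIP and ANO8 are lowest at 3 h. All 17 genes were chosen by their values at 3 h. For TXNIP and ANO8 the interaction test passed neither from 1.5 h to 3 h nor from 3 h to 6 h.

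Cadmium (2.3 µM) and mercury (20 µM) were given for the same 3 h at other doses. The study chose the doses of the 3 metals as equally toxic after a much longer exposure. All 3 metals were compared with the same non-treated libraries, so that the calls against these controls are not independent of each other. Of the 17 genes, 10 also passed with cadmium (0.203% of all genes) and 15 with mercury (1.55%), in the same direction. The treated groups were therefore compared directly, without the non-treated libraries.

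Arsenic and cadmium differed for 17 genes (0.138%), 2 higher (0.0162%) and 15 lower (0.122%) with arsenic. HMOX1 and GCLM were the 2 that were higher. HMOX1 stood at 150, 141, and 130 CPM with cadmium, below each arsenic library (direct LFC 1.59, standard error 0.14, adjusted p = 1.02e-13). GCLM stood at 152, 132, and 142 CPM with cadmium, near the 130 to 140 CPM of non-treated cells (direct LFC 0.55, standard error 0.10, adjusted p = 0.000274, and 0.0548 with only these 6 libraries in the fit).

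Metal-responsive genes were lower with arsenic. MT1X stood at 62.7, 76.9, and 54 CPM with cadmium (direct LFC -2.16, adjusted p = 1.43e-13), and SLC30A1 at 220, 205, and 181 CPM (-1.03, adjusted p = 2.03e-08). MT1E stood at 1300, 1430, and 1190 CPM with cadmium (-1.94, adjusted p = 3.31e-23) and MT2A at 10500, 11400, and 5540 CPM (-1.57, adjusted p = 2.59e-08). No arsenic library reached a cadmium library for these 4 genes. The share of all genes with such a gap between arsenic and cadmium was not counted. RGS16, a regulator of G protein signalling, was lower with arsenic as well (-2.02, adjusted p = 0.000274), with 3.09, 4.37, and 3.67 CPM against 16.8, 20.3, and 7.75 CPM with cadmium, and its adjusted p was 0.0548 with only these 6 libraries in the fit. For the HSP70 genes the direct LFC was 0.33 for HSPA1A, 0.51 for HSPA1B, and 0.75 for HSPA6, and none of the 3 passed (adjusted p = 0.834, 0.311, and 0.73).

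Arsenic and mercury differed for 233 genes (1.89%), 27 higher (0.219%) and 206 lower (1.67%) with arsenic, and 9 of the 17 genes were among them. TXNIP was higher with arsenic, with 14.5, 10.3, and 13.9 CPM under mercury (direct LFC 1.58, standard error 0.19, adjusted p = 3.88e-09). DDIT4 reached 91.6, 98.4, and 101 CPM with mercury (-2.18, adjusted p = 1.38e-13), HSPA6 26, 37.5, and 33.8 CPM (-2.28, adjusted p = 2.01e-10), and HSPA1A 72.7, 82.4, and 62.2 CPM (-1.05, adjusted p = 3.93e-05). Every mercury library of these 3 genes lay above every arsenic library, and the share of all genes so separated was not counted for this comparison. SLC30A1 (-0.73, adjusted p = 4.11e-05), HSPA1B (-0.73, adjusted p = 0.000926), BAG3 (-0.57, adjusted p = 0.00441), HSPH1 (-0.35, adjusted p = 0.00322), and DNAJB1 (-0.41, adjusted p = 0.0422) were lower too. Leaving out 1 library ended this call for HSPA1B (without mercury replicate 2, adjusted p = 0.112), BAG3 (without arsenic replicate 3 or mercury replicate 2, 0.0981 and 0.0537), HSPH1 (without arsenic replicate 3, 0.0781), and DNAJB1 (without arsenic replicate 1 or 2 or mercury replicate 1 or 3, 0.096, 0.251, 0.162, and 0.186). HMOX1 had 529, 628, and 556 CPM with mercury, a difference that did not pass (-0.44, adjusted p = 0.0564).

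**Figure D4:**
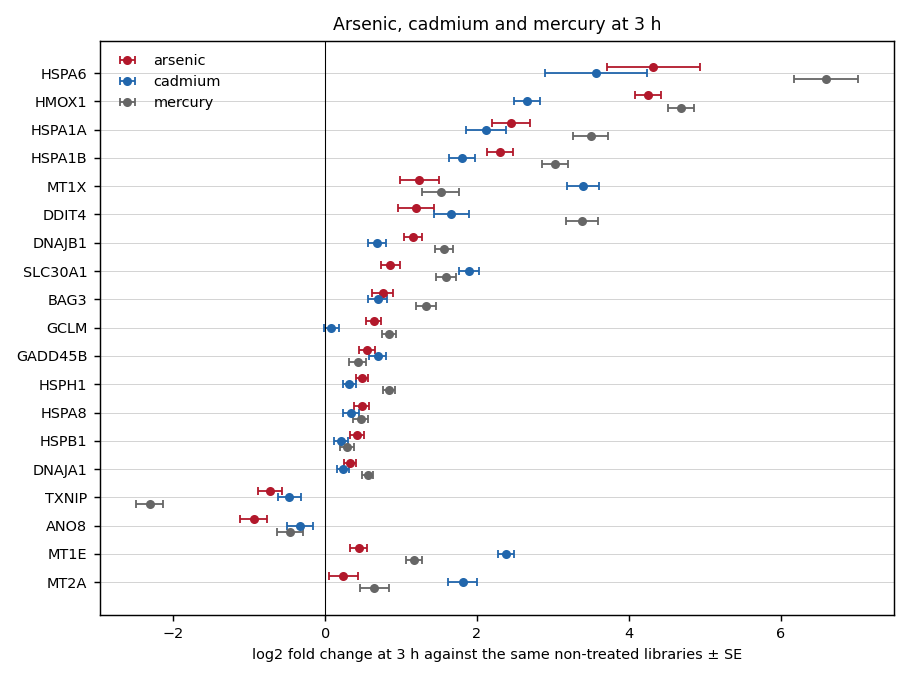
LFC at 3 h with its standard error for arsenic (red), cadmium (blue), and mercury (grey), each over the same 3 non-treated libraries, for the 17 genes and for MT1E and MT2A. Cadmium lies furthest right for MT1X (3.40), SLC30A1 (1.89), MT1E (2.38), and MT2A (1.81), mercury for HSPA6 (6.60) and DDIT4 (3.38), and arsenic stands above cadmium for HMOX1 (4.25 against 2.66) and GCLM (0.64 against 0.08).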

How the data were processed

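Per the labels and the methods of the study, the authors sequenced 3′ mRNA libraries as 100-base single-end reads, aligned them to GRCh38 with STAR 2.7.9a, and counted them per gene on GENCODE basic exons by strand with GenomicAlignments in Union mode, so that reads overlapping more than 1 gene were left out. They deposited whole-number counts without normalization, and 92 spike-in entries held 0 counts.

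The model held all 60 libraries, with 1 term per group (20 groups), in edgeR 4.0.16 under R 4.3.3. Genes were kept by filterByExpr (minimum count 10, minimum total 15) and libraries scaled by TMM. P values of the quasi-likelihood test received the Benjamini-Hochberg adjustment over all genes of a comparison, with 0.05 as threshold. CPM values are counts scaled by depth and TMM factor, and precision is limited by the 2215276 to 4404609 counts per library. Interactions between time points and direct contrasts of metals came from the same fit. The script was tested on simulated data, and replicates were checked for copies, of which there were none.

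Named genes are all that passed, the members of each gene list that passed or had the highest counts, and the genes the study names for its RNA sequencing. Other genes, including those just past the threshold, RGS16, and the lower list members, were chosen after their values were seen. The genes and lists were chosen with earlier results of these data known, so no list was tested as a set. Promoters were read from RefSeq tables, and shared transcript ends from GENCODE, where the release used by the authors may differ. The alternatives were scaling by RLE, dropping or tightening the filter (10 counts), a replicate block, only the libraries compared, DESeq2 1.42.0 with and without LFC shrinkage by ashr 2.2.63, leaving out each library, and, chosen after seeing the data, HSPA1A and HSPA1B summed and the mitochondrial genome left out. The genetic screens of the study were not analysed here.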

Additional observations from a re-analysis of the deposited data

Results flagged for a closer look

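The effect of arsenic differed between time points by the interaction test for 4 genes from 1.5 h to 3 h and for 8 genes from 3 h to 6 h (0.0648% of the genes tested), in edgeR's quasi-likelihood test. From 1.5 h to 3 h the LFC grew by 3.50 for HMOX1, 2.46 for HSPA1B, 2.68 for HSPA1A, and 0.95 for DNAJB1, and these 4 calls held in every fit that left out 1 library.

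From 3 h to 6 h it grew by 0.96 for SLC7A11, the cystine importer (standard error 0.16, adjusted p = 0.00139), and by 1.07 for GPT2, a mitochondrial alanine transaminase (0.19, 0.0019), both of which held without any 1 library. SLC7A11 stood at 119, 131, and 104 CPM with arsenic at 3 h and at 367, 273, and 262 CPM at 6 h, against 91.8, 94, and 106 CPM and 140, 124, and 120 CPM in the non-treated cells. HMOX1 grew by 1.19 (adjusted p = 0.0155), ZC3H7A by 0.98 (0.016), LINC01133 by 0.82 (0.0176), SLC3A2, the partner of SLC7A11 in the cystine transporter, by 0.70 (0.0177), and CEBPB, a transcription factor, by 0.82 (0.0225). SLC4A2, an anion exchanger, changed by -1.19 (adjusted p = 0.0129), with 64.3, 65.2, and 99.3 CPM at 3 h and 33.6, 44.4, and 59.2 CPM at 6 h of arsenic. Its non-treated level moved the other way, from a mean of 59.4 to 81.6 CPM. For ZC3H7A the non-treated mean went from 64.4 to 38 CPM while the arsenic mean went from 46.9 to 54.5 CPM.

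Each of these 6 calls depended on single libraries. HMOX1 missed the threshold without non-treated 3 h replicate 3 or 6 h replicate 2. ZC3H7A did without arsenic 6 h replicate 1 (adjusted p = 0.0976), arsenic 3 h replicate 3 (0.092), or non-treated 3 h replicate 2 (0.0623). LINC01133 did without the first 2 of these (0.0572 and 0.092), non-treated 3 h replicate 2 (0.086), or non-treated 6 h replicate 2 (0.108). SLC3A2 did without arsenic 3 h replicate 2 (0.0763), arsenic 6 h replicate 2 (0.0848), non-treated 3 h replicate 2 (0.0623), or non-treated 6 h replicate 3 (0.0509). CEBPB did without arsenic 6 h replicate 1 or 2 (0.0792 and 0.0555), non-treated 3 h replicate 1 or 2 (0.0548 and 0.0854), or non-treated 6 h replicate 1 (0.159), and SLC4A2 without arsenic 6 h replicate 1 (0.0976), arsenic 3 h replicate 3 (0.143), non-treated 3 h replicate 1 (0.0548), or non-treated 6 h replicate 1 (0.112).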

How the results depend on the processing

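Against non-treated cells the 17 genes became 50 without a filter on low counts (30 higher and 20 lower, 11 of them in the list of 13 mitochondrial genome transcripts), 40 with DESeq2 (30 higher and 10 lower), 10 with only the 6 libraries compared, and 10 to 31 with 1 library left out: 31 without arsenic replicate 1, 11 without non-treated replicate 2, and 10 without non-treated replicate 3. The 7 genes beyond an LFC of 1 became 6 to 11, the highest without arsenic replicate 1. Arsenic against cadmium gave 49 genes without a filter, 30 with DESeq2, 7 with only the libraries compared, and 14 to 21 with 1 library left out, in place of 17. Arsenic against mercury gave 122 with only the libraries compared and 136 to 217 with 1 left out, in place of 233 (136 without mercury replicate 2, 141 without arsenic replicate 3). The effect at 3 h against 1.5 h gave 15 genes without a filter, in place of 4. That at 6 h against 3 h gave 48 without a filter, 31 with DESeq2, 21 with only the libraries compared, and 4 to 20 with 1 left out, in place of 8 (4 without arsenic 6 h replicate 1, 20 without arsenic 3 h replicate 1, 16 without arsenic 6 h replicate 3, 5 without non-treated 3 h replicate 2). The cause of these shifts was not tested.

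A replicate block gave 18 genes against non-treated cells, 15 higher and 3 lower, adding GON4L and MT1E and dropping DNAJA1, and 17, 209, 4, and 8 in the other comparisons. Deviations of libraries with the same number correlated at 0.00961 to 0.0213, and those with different numbers at -0.0311 to 0.0197. Such correlations cannot decide whether the numbers mark pairs, because counting error in genes with few counts lowers them.

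With 1 library left out, uncalled LFCs near 0 changed sign for SLC39A10 (-0.13 to 0.21), SLC39A14 (-0.05 to 0.07), SLC3A2 (-0.07 to 0.06), SLC6A9 (-0.26 to 0.06), ABCC1 (-0.07 to 0.15), HSP90AB1 (-0.01 to 0.11), SLC20A1 (-0.13 to 0.01), and HSPA5 (-0.07 to 0.00). Depth limits the genes with few counts most, and intervals cover counting error only.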

Other observations

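The genes named here lie outside the 17 and differed between arsenic and mercury or cadmium at 3 h. HBEGF, a ligand of the EGF receptor, had 40.8, 61.7, and 50.7 CPM with arsenic and 179, 175, and 178 CPM with mercury (direct LFC -1.81, standard error 0.14, adjusted p = 9.52e-16 in edgeR's test), while non-treated cells had 39.6, 53, and 39.3 CPM. ERRFI1, a feedback inhibitor of that receptor, had 23.5, 28, and 16.3 CPM against 75.4, 129, and 72.9 CPM (-2.05, adjusted p = 5.09e-11). SESN2, a stress-inducible inhibitor of mTORC1 signalling, had 26.3, 20.1, and 17.3 CPM against 71, 76.7, and 76.4 CPM (-1.80, adjusted p = 2.23e-11), and PPP1R15A had 31.5, 28, and 46.7 CPM against 103, 119, and 99.2 CPM (-1.59, adjusted p = 2.23e-11). The transcription factors ID1 (0.55, adjusted p = 1.17e-05) and ATOH8 (1.10, adjusted p = 9.45e-05) stood higher with arsenic than with mercury. ATOH8 had 38.9, 57.7, and 51.3 CPM against 24.3, 20.7, and 23.7 CPM, and 40.5, 33.8, and 39.6 CPM in non-treated cells. Against non-treated cells its arsenic level did not pass (LFC 0.37, adjusted p = 0.679). ID1 had 553, 596, and 625 CPM with arsenic and 415, 376, and 417 CPM with mercury. Non-treated cells had 622, 595, and 548 CPM of ID1, near the arsenic level. The genes of this paragraph were chosen after their values were seen, as having the lowest p in each direction. Their differences from mercury held in each alternative tried.

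Compared with cadmium, ZFP36L1, which promotes the decay of mRNAs with AU-rich elements, stood lower with arsenic, with 128, 119, and 108 CPM against 173, 177, and 184 CPM (-0.59, adjusted p = 0.000116, and 0.054 with only these 6 libraries in the fit). SERTAD4 had 90.6, 85.3, and 78.6 CPM against 125, 135, and 147 CPM (-0.68, adjusted p = 0.000141). Neither gene passed between arsenic and non-treated cells (adjusted p = 0.633 and 0.836).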
